A study of Mus musculus with 12 samples.

Results

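The genes described here are the enzymes and binding proteins that write, remove and read N6-methyladenosine (m6A) on messenger RNA. They were taken by gene identifier from a table of 55487 mouse genes, and 10 of these genes are members. The members are the core writers Mettl3, Mettl14 and Wtap, the other writer Mettl16, the erasers Fto and Alkbh5, the cytoplasmic readers Ythdf1, Ythdf2 and Ythdf3, and the nuclear reader Ythdc1.

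RNA-seq of 6 mice, with liver and brain taken from each, gave 12 total RNA libraries in 4 groups of 3. KO mice A, C and F lacked Mettl5, the enzyme that places m6A on 18S rRNA, and mice B, D and E were the controls labelled WT. The study's text speaks of heterozygous controls for its mouse RNA-seq, so WT stands here for the label alone. Exon 2 of Mettl5 was disrupted with CRISPR-Cas9 in a floxed line made in hybrid embryonic stem cells and backcrossed to C57bl/6 mice, and a CMV-cre line that acts in the whole body removed the floxed part. Neither age, sex, litter nor library batch of a mouse is in the labels. The study's text speaks of 3 pairs of mice, but the labels do not say which KO and WT mouse form a pair. Genotypes were therefore compared without pairs, and no paired fit of genotypes was run. Xist, transcribed from the inactive X chromosome of females, had from 9446 to 19028 counts in the 4 libraries of WT mouse E and KO mouse F and at most 19 in the other 8, while Y-linked genes had at most 336 counts in those 4 and at least 2183 in the other 8. Each genotype thus held 1 mouse with this female pattern. The comparison of genotypes asks whether mRNA m6A genes change in level when the rRNA m6A enzyme is lost.

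In cells, METTL3 carries the catalytic site, METTL14 holds the RNA and WTAP brings the pair to nuclear speckles, where mRNA is methylated while it is made. FTO and ALKBH5 are iron-dependent oxygenases that take the methyl group off again. Proteins with a YTH domain bind the methylated base: the YTHDF proteins act in the cytoplasm, where they are known above all for speeding mRNA decay, and YTHDC1 acts in the nucleus on splicing and export. METTL5 belongs to the same wider family of methyltransferases but works on ribosomal RNA, with TRMT112 as its partner.

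The liver libraries held between 16145754 and 21623180 counts and the brain libraries between 14403309 and 18365114, and a member had between 102 and 3845 counts in a library. Levels are given as normalised read counts (CPM: counts brought to a common library size, with TMM factors over the 12 libraries), always in the order of mice B, D and E for WT and A, C and F for KO. The tissue labels held against marker genes: 6 hepatocyte genes summed to between 75607 and 99052 CPM in liver and at most 26.9 CPM in brain, and 6 neuronal genes summed to between 2636 and 3307 CPM in brain and at most 25.9 CPM in liver. Mettl5 itself had 19.0, 10.1 and 10.4 CPM in WT liver and 4.94, 4.64 and 5.23 CPM in KO liver. In brain it had 7.13, 4.66 and 3.96 CPM in WT and 2.61, 3.12 and 3.004 CPM in KO. The KO libraries lay below the WT libraries in both tissues, with a log2 fold change of -1.44 (SE 0.27) in liver and -0.84 (SE 0.27) in brain, but neither passed the test over all genes (edgeR adjusted p = 0.383 and 0.373). The counts cover all exons of Mettl5, so reads from the exons outside the disrupted one still count in KO mice.

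None of the 10 members was called as different between genotypes. In liver, 0 of 10 were called at an adjusted p under 0.1, where 0.00% of all 14075 genes tested were called, and 0 of 10 had an unadjusted p under 0.05, against 7.33% of all genes. In brain, 0 of 10 were called, against 0.0640% of 17188 genes, and 0 of 10 had an unadjusted p under 0.05, against 11.0% of all genes. DESeq2 called 0 members in either tissue, against 0.631% of all genes in liver and 0.847% in brain, and gave 0 in liver and 1 in brain, Alkbh5, an unadjusted p under 0.05, against 3.77% and 6.40% of all genes. In brain, 3 other edgeR fits gave the erasers Fto and Alkbh5, and no other member, an unadjusted p under 0.05, with 95% intervals below 0. Without the filter on low counts both erasers had a log2 fold change of -0.44 (edgeR adjusted p = 0.164 for Fto and 0.153 for Alkbh5), and 10.9% of all genes had such a p. With an offset for GC content and length they were at -0.36 and -0.33 (edgeR adjusted p = 0.371 and 0.347), against 13.1% of all genes, and with all 12 libraries in 1 fit at -0.42 and -0.42 (edgeR adjusted p = 0.525 and 0.5002), against 9.30%. The intervals that follow are those of the within-tissue edgeR fits. In liver the 95% intervals of the 10 fold changes, KO over WT, lay between 0.649-fold and 1.43-fold. In brain they lay between 0.543-fold and 1.35-fold. These bounds are the outermost ends over the 10 genes, and the interval of each gene, given below, is narrower. Changes inside a gene's own interval cannot be told from none, and a p that misses the threshold does not show that KO and WT were alike.

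**Figure D1:**
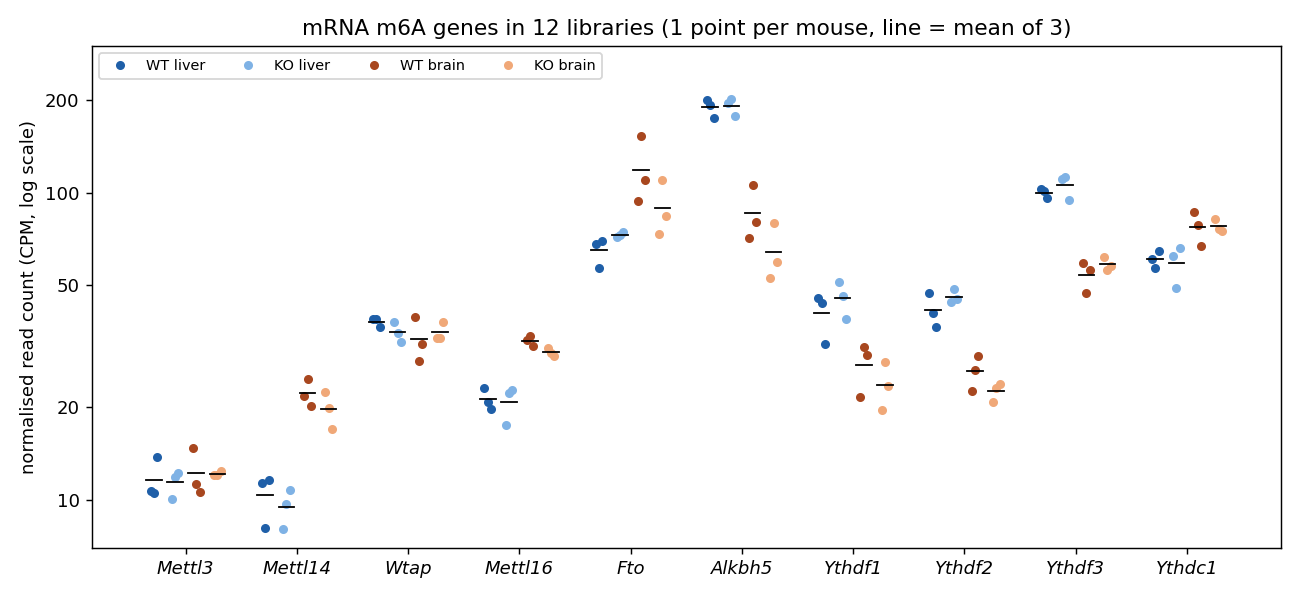
Normalised read counts (CPM, log scale) of the 10 mRNA m6A genes in WT liver, KO liver, WT brain and KO brain, with 1 point per mouse and a line at the mean of 3. The ranges of KO and WT mice overlap within a tissue for all genes but Fto in liver and Mettl16 in brain, whereas liver and brain stand apart for most genes on this scale.

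Among the core writers, Mettl3 (ENSMUSG00000022160.18, chromosome 14, 52294841 to 52305128 on the minus strand of mm10) is the catalytic subunit. Mettl3 had 10.7, 10.5 and 13.8 CPM in WT liver and 10.1, 11.9 and 12.3 CPM in KO liver. In brain, Mettl3 had 14.7, 11.3 and 10.6 CPM in WT and 12.05, 12.1 and 12.4 CPM in KO. The genotypes overlapped in both tissues, and the highest value in each belonged to a WT mouse. The log2 fold change of Mettl3 was -0.06 (SE 0.18, 95% interval -0.47 to 0.35, edgeR adjusted p = 0.976) in liver and 0.00 (SE 0.17, 95% interval -0.38 to 0.38, edgeR adjusted p = 0.995) in brain. Exons of Mettl3 share 933 bases, 18.4% of their length, with Tox4 on the opposite strand, and the counting used strand.

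Mettl14 (ENSMUSG00000028114.16, chromosome 3, 123368297 to 123386108, minus strand) encodes the partner without catalytic activity. Mettl14 had 11.3, 8.13 and 11.6 CPM in WT liver and 8.03, 9.72 and 10.8 CPM in KO liver. In brain, Mettl14 had 21.7, 24.8 and 20.3 CPM in WT and 22.4, 19.97 and 17.0 CPM in KO. Values of the genotypes again overlapped, with all brain libraries above all liver libraries. Mettl14 had a log2 fold change of -0.15 (SE 0.21, 95% interval -0.62 to 0.32, edgeR adjusted p = 0.934) in liver and -0.16 (SE 0.16, 95% interval -0.51 to 0.18, edgeR adjusted p = 0.682) in brain.

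Wtap (ENSMUSG00000060475.13, chromosome 17, 12966796 to 12994169, minus strand) encodes the adaptor of the complex. Wtap had 38.9, 38.8 and 36.4 CPM in WT liver and 37.8, 34.9 and 32.7 CPM in KO liver. In brain, Wtap had 39.5, 28.3 and 32.1 CPM in WT and 33.6, 33.7 and 38.1 CPM in KO. Over the 12 libraries Wtap stayed between 28.3 and 39.5 CPM, and its genotypes overlapped in both tissues. Its log2 fold change was -0.14 (SE 0.12, 95% interval -0.42 to 0.13, edgeR adjusted p = 0.869) in liver and 0.08 (SE 0.16, 95% interval -0.27 to 0.43, edgeR adjusted p = 0.850) in brain, where the sign turned to -0.05 with a correction for GC content and length and to -0.13 with library totals in place of TMM.

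Mettl16 (ENSMUSG00000010554.14, chromosome 11, 74770830 to 74828525, plus strand) works outside this complex, methylating U6 small nuclear RNA and the Mat2a mRNA. Mettl16 had 23.2, 20.9 and 19.8 CPM in WT liver and 17.6, 22.3 and 22.8 CPM in KO liver, with the lowest and the second highest value both from KO mice. In brain, Mettl16 had 33.2, 34.1 and 31.8 CPM in WT and 31.2, 30.1 and 29.5 CPM in KO. All 3 KO brains lay below all 3 WT brains, and Mettl16 was the 1 member of 10 for which this was so, whereas 7.95% of all genes tested in brain had KO below WT without overlap and 8.42% had KO above. The gap was small, with a log2 fold change of -0.12 (SE 0.12, 95% interval -0.40 to 0.16, edgeR adjusted p = 0.698). An exact permutation test, two-sided, gave p = 0.1, the smallest that 3 against 3 libraries allow. In liver, the log2 fold change of Mettl16 was -0.05 (SE 0.15, 95% interval -0.39 to 0.29, edgeR adjusted p = 0.975).

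The eraser Fto (ENSMUSG00000055932.15, chromosome 8, 91313525 to 91668439, plus strand) had 68.1, 56.7 and 69.7 CPM in WT liver and 71.6, 72.6 and 74.2 CPM in KO liver. All 3 KO livers lay above all 3 WT livers, which held for 1 of 10 members, against 8.03% of all genes in this direction and 5.18% in the other. The difference amounted to a log2 fold change of 0.14 (SE 0.12, 95% interval -0.14 to 0.42, edgeR adjusted p = 0.880), with p = 0.1 by the exact permutation test, two-sided, and it was 0.06 without mouse D. In brain, Fto had 93.7, 153.0 and 109.6 CPM in WT and 73.5, 109.5 and 83.6 CPM in KO. The WT brain of mouse D was the highest and the KO brain of mouse A the lowest, and the groups overlapped. In brain this gave Fto a log2 fold change of -0.41 (SE 0.21, 95% interval -0.88 to 0.05, edgeR adjusted p = 0.484), and -0.20 without mouse D.

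Alkbh5 (ENSMUSG00000042650.3, chromosome 11, 60536381 to 60558512, plus strand), the other eraser, had 199.7, 193 and 175 CPM in WT liver and 196, 202 and 177 CPM in KO liver. The liver values of the genotypes interleaved, with a log2 fold change of -0.01 (SE 0.13, 95% interval -0.30 to 0.28, edgeR adjusted p = 0.994). In brain, Alkbh5 had 71.4, 106 and 80.4 CPM in WT and 52.7, 79.7 and 59.5 CPM in KO. The lowest 2 brains were KO and the highest 2 were WT, but KO mouse C exceeded WT mouse B, as it did for Fto. The log2 fold change of Alkbh5 in brain was -0.42 (SE 0.19, 95% interval -0.85 to 0.01), with the smallest unadjusted p of the 10 members in either tissue, 0.0565, and an edgeR adjusted p of 0.462. Without mouse D it was -0.25, and without mouse C -0.61. Without mouse B or without mouse C, both erasers had an unadjusted p under 0.05 in brain, against 15.4% and 18.4% of all genes in the same fits, and without any 1 of the other 4 mice neither had. An exact permutation test, two-sided and without pairs of mice, gave p = 0.2 for each eraser in brain.

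The cytoplasmic reader Ythdf1 (ENSMUSG00000038848.14, chromosome 2, 180904377 to 180920949, minus strand) had 45.4, 43.8 and 32.2 CPM in WT liver and 51.1, 46.0 and 38.9 CPM in KO liver. In brain, Ythdf1 had 21.6, 31.4 and 29.5 CPM in WT and 19.6, 28.1 and 23.4 CPM in KO. Mouse E, the WT mouse with the female pattern, was the low WT liver and mouse B the low WT brain, and the genotypes overlapped in both tissues. Ythdf1 had a log2 fold change of 0.14 (SE 0.17, 95% interval -0.24 to 0.51, edgeR adjusted p = 0.921) in liver and -0.21 (SE 0.19, 95% interval -0.63 to 0.21, edgeR adjusted p = 0.661) in brain, where leaving out 1 mouse gave from -0.35 (without mouse C) to -0.09 (without mouse A).

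Ythdf2 (ENSMUSG00000040025.17, chromosome 4, 132184912 to 132212303, minus strand), the reader best known for recruiting the CCR4-NOT deadenylase, had 47.1, 40.5 and 36.6 CPM in WT liver and 44.1, 48.4 and 45.0 CPM in KO liver. In brain, Ythdf2 had 22.7, 26.5 and 29.4 CPM in WT and 20.9, 23.2 and 23.8 CPM in KO. Only WT mouse B kept the groups from standing apart, as the highest WT liver and the lowest WT brain. Ythdf2 had a log2 fold change of 0.12 (SE 0.13, 95% interval -0.18 to 0.41, edgeR adjusted p = 0.905) in liver and -0.21 (SE 0.15, 95% interval -0.54 to 0.12, edgeR adjusted p = 0.588) in brain.

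Ythdf3 (ENSMUSG00000047213.14, chromosome 3, 16183212 to 16217037, plus strand) had 102, 101 and 96.1 CPM in WT liver and 111, 112 and 94.8 CPM in KO liver. In brain, Ythdf3 had 59.2, 47.1 and 56.1 CPM in WT and 61.7, 56.1 and 57.9 CPM in KO. The lowest and the highest liver were those of KO mice F and C, and a WT mouse was the lowest brain. Ythdf3 had a log2 fold change of 0.06 (SE 0.13, 95% interval -0.23 to 0.34, edgeR adjusted p = 0.963) in liver and 0.12 (SE 0.14, 95% interval -0.19 to 0.42, edgeR adjusted p = 0.736) in brain, where it turned to -0.14 with a correction for GC content and length and to -0.11 with library totals.

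The nuclear reader Ythdc1 (ENSMUSG00000035851.14, chromosome 5, 86804221 to 86836659, plus strand) had 60.6, 57.0 and 64.7 CPM in WT liver and 62.0, 49.0 and 66.0 CPM in KO liver. In brain, Ythdc1 had 86.6, 78.5 and 67.3 CPM in WT and 82.2, 75.9 and 74.7 CPM in KO. KO values spanned the WT range in liver, and WT values spanned the KO range in brain. The log2 fold change of Ythdc1 was -0.07 (SE 0.14, 95% interval -0.39 to 0.25, edgeR adjusted p = 0.958) in liver and 0.01 (SE 0.14, 95% interval -0.30 to 0.32, edgeR adjusted p = 0.986) in brain, where it turned to -0.25 with the correction for GC content and length and to -0.22 with library totals. Exons of Ythdc1 have a GC content of 39.9% and those of Ythdf3 40.2%, the lowest of the 10 members, while those of Ythdf1 have 50.7% and those of Alkbh5 50.4%, the highest.

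**Figure D2:**
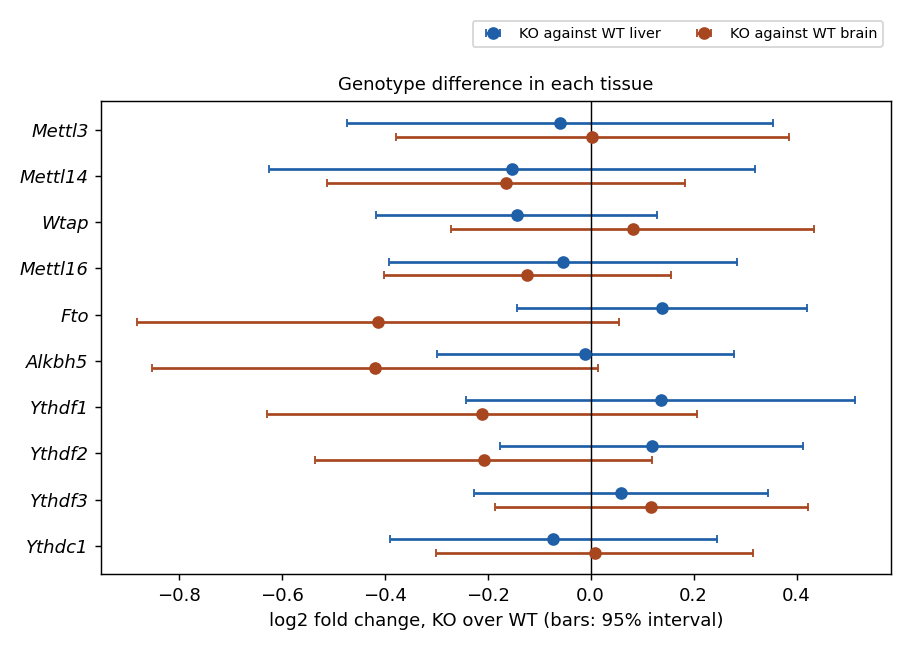
Log2 fold change, KO over WT, of each member in liver (blue) and in brain (brown), with bars for the 95% interval from the within-tissue edgeR fits. Every interval of these fits includes 0, the liver estimates lie between -0.15 and 0.14, and the brain estimates of Alkbh5 and Fto lie lowest at -0.42 and -0.41; with library totals in place of TMM, all 10 brain estimates were below 0.

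Over the 10 members the median log2 fold change was -0.03 in liver and -0.14 in brain, beside a median of 0.00 over all genes tested in each tissue. In brain 6 members were lower in KO and 4 higher. With library totals in place of TMM, all 10 were lower in KO brain and 5 had an unadjusted p under 0.05, against 18.6% of all genes, but the median over all genes was then -0.23, and none was called. Which members stood apart between genotypes also depended on the scale: with library totals they were Alkbh5, Ythdf2 and Ythdf3, higher in KO liver, and Mettl14, Mettl16 and Ythdf2, lower in KO brain, so 3 of 10 in each tissue, where 11.4% of all genes stood apart as higher in KO liver and 22.4% as lower in KO brain. On this scale the median of all genes lay at 0.09 in liver and -0.23 in brain, in the same directions. By contrast, Fto in liver overlapped with library totals (44.0 to 57.9 CPM from library totals in WT, 56.2 to 63.0 in KO).

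The KO and WT brains also differed in regional markers and in mitochondrial rRNA. Summed over 8 genes each, olfactory bulb markers ranged from 4.85 to 10.1 CPM in WT brain and from 33.0 to 47.7 CPM in KO brain, and cerebellar markers from 733 to 1278 CPM in WT and from 88.6 to 493 CPM in KO. Choroid plexus markers, also 8 genes, ranged from 181 to 313 CPM in WT and from 91.8 to 147 CPM in KO. All 8 genes of each of these lists had a count in at least 1 library of both genotypes. In KO brain all 8 bulb genes were higher, 5 of them called, against 0.0640% of all genes. All 8 cerebellar and all 8 choroid plexus genes were lower, none called. The lists were chosen with earlier results of these data known, so the shared directions are descriptions and not tests. Mitochondrial rRNA took from 7.63% to 17.7% of the counts in WT brain and from 21.4% to 31.6% in KO brain. Mouse D, with the highest Fto and Alkbh5 among the brains, had the lowest share, and mouse A, with the lowest Fto and Alkbh5, the highest. The part of these differences in the brain values of the erasers was not tested. In liver, mitochondrial rRNA took from 10.7% to 16.9% in WT and from 7.36% to 8.66% in KO, and 6 immune cell genes summed to between 250 and 494 CPM in WT and between 147 and 286 CPM in KO. In whole tissue, fewer cells of a type and less RNA per cell cannot be told apart.

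No member had a genotype effect that was called as different between the tissues. The difference (the KO over WT effect in liver minus that in brain) was called for 0 of 10 members by edgeR, against 0.00% of 18944 genes tested, and by DESeq2 also for 0, where it called 369 of 34388 genes. A fit with mouse as a block, since both tissues came from the same animals, called 0 of 10, against 0.359% of all genes. At an unadjusted p under 0.05 there was 1 member, Fto, against 10.6% of all genes, and with library totals there were 4, against 17.9%, with none called. The median of all genes for this difference was 0.04 with TMM and 0.32 with library totals. For Fto the effects of 0.14 in liver and -0.41 in brain differed by 0.59 on the log2 scale (SE 0.27, 95% interval 0.01 to 1.16, edgeR adjusted p = 0.465), and with the mouse block by 0.58 (95% interval -0.06 to 1.22, edgeR adjusted p = 0.617). Without mouse D the difference of Fto was 0.28 (95% interval -0.27 to 0.82), and leaving out any 1 of the other mice gave 0.48 to 0.77. Alkbh5 followed with 0.44 (95% interval -0.10 to 0.98, edgeR adjusted p = 0.563), and the remaining differences ran from -0.19 for Wtap to 0.38 for Ythdf1.

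Between tissues the members did differ. In WT mice 8 of 10 were called as different between liver and brain, against 78.4% of all genes, so the share of members called was close to that of genes in general. Of these, 4 were higher in liver, against 34.8% of all genes, and 4 lower, against 43.6%. In KO mice 7 of 10 were called, against 80.0% of all genes, with 4 higher, against 35.5%, and 3 lower, against 44.6%. Without overlap between the tissues, 4 members lay above and 4 below in WT liver (34.1% and 43.2% of all genes), and 4 lay above and 3 below in KO liver (34.7% and 43.6%), all with TMM. The directions depended on how libraries of such unlike tissues were scaled, so each is given with TMM and with library totals.

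Higher in liver with TMM were Alkbh5 and the 3 Ythdf readers. Alkbh5 was higher by 1.14 on the log2 scale in WT mice (SE 0.18, edgeR adjusted p = 5.21e-05) and by 1.58 in KO mice (SE 0.18, edgeR adjusted p = 2.25e-06). Its 6 liver libraries all lay above its 6 brain libraries with TMM. With library totals Alkbh5 remained higher, by 0.30 in WT, which was not called, and by 1.02 in KO, which was. On that scale its WT libraries overlapped between tissues, with 141 to 150.1 CPM from library totals in liver and 93.6 to 150.4 in brain, while its KO livers (150.3 to 156) stayed above its KO brains (56.0 to 97.5). Ythdf3 was higher by 0.88 in WT and 0.86 in KO, Ythdf2 by 0.66 and 1.02, and Ythdf1 by 0.55 and 0.93, each called (highest edgeR adjusted p = 0.0190, for Ythdf1 in WT). With library totals the WT values became 0.06 for Ythdf3, -0.18 for Ythdf2 and -0.30 for Ythdf1, none called, and the KO values 0.31, 0.47 and 0.37, of which Ythdf1 was not called. The call of Ythdf1 in WT mice also rested on mouse B, without which it was 0.31 (edgeR adjusted p = 0.240).

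Lower in liver with TMM were Mettl14, Mettl16 and Ythdc1 in both genotypes, and Fto in WT mice. Mettl14 was lower in liver by the log2 value of -1.10 in WT (SE 0.19, edgeR adjusted p = 0.000103) and -1.06 in KO (SE 0.19, edgeR adjusted p = 0.000152). Mettl16 stood at -0.63 in WT and -0.53 in KO, and Ythdc1 at -0.35 and -0.40, all called. Fto was at -0.87 in WT (SE 0.19, edgeR adjusted p = 0.000868) and at -0.29 in KO (SE 0.19, 95% interval -0.70 to 0.12, edgeR adjusted p = 0.182), which is the member whose call differed between genotypes, and the difference of 0.59 was not called. Without mouse D, Fto in WT was at -0.56 (edgeR adjusted p = 0.0221). Library totals made all of these lower still, Mettl14 to -1.93 and Fto to -1.71 in WT, and kept the calls, with Fto in KO then called at -0.84. The call of Ythdc1 in WT mice was lost without mouse B (-0.26, edgeR adjusted p = 0.229) and without mouse D (-0.30, edgeR adjusted p = 0.183), and in KO mice without mouse C (-0.29, edgeR adjusted p = 0.146).

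Mettl3 and Wtap were not called between tissues with TMM. Mettl3 was at -0.06 in WT (95% interval -0.45 to 0.32, edgeR adjusted p = 0.755) and -0.09 in KO, and Wtap at 0.19 in WT (95% interval -0.12 to 0.50, edgeR adjusted p = 0.240) and 0.00 in KO. With library totals both were called lower in liver, Mettl3 at -0.88 and Wtap at -0.63 in WT mice. Called members then numbered 6 in WT mice, all lower in liver, and 9 in KO mice, 3 higher and 6 lower. The share of all genes called with library totals was 82.4% in WT mice, 21.1% higher and 61.3% lower in liver, and 80.2% in KO mice, 25.4% higher and 54.7% lower.

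**Figure D3:**
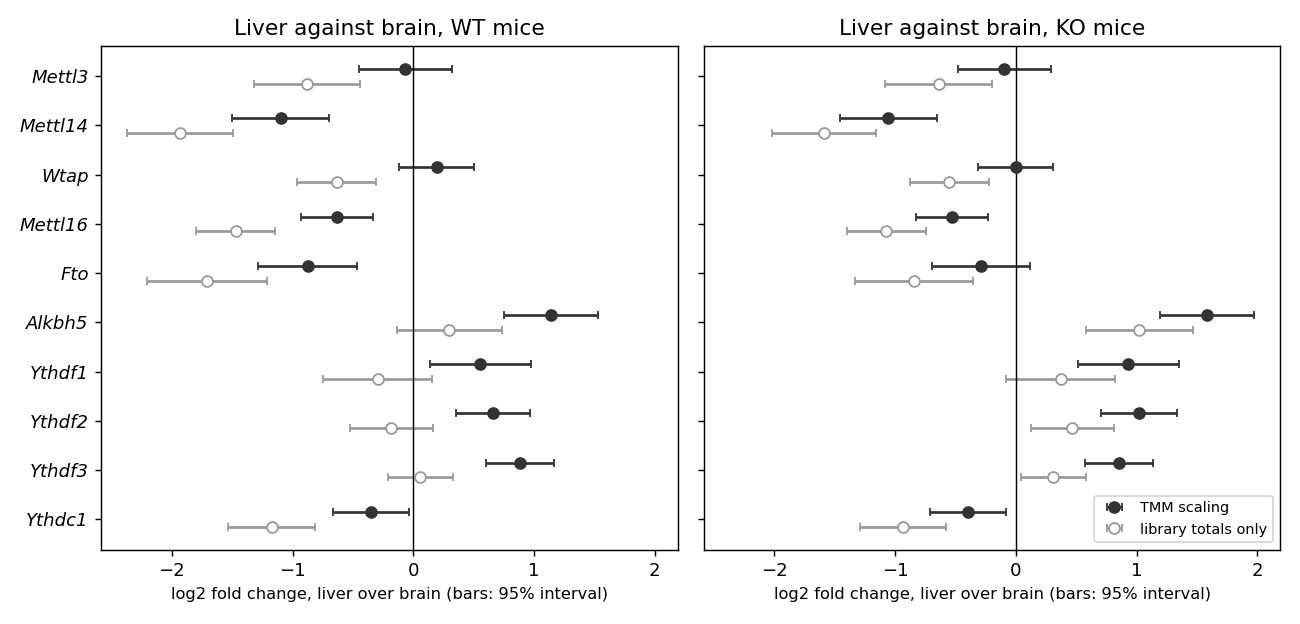
Log2 fold change, liver over brain, of each member in WT mice (left) and KO mice (right), with TMM scaling (filled) and with library totals only (open), and bars for the 95% interval. Library totals move every member to the left by a similar amount, and with this shift Wtap, Ythdf1 and Ythdf2 change sign in WT mice.

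The median of all genes, liver over brain, was -0.21 in WT mice and -0.22 in KO mice with TMM, and -1.04 and -0.76 with library totals. Library totals shift all genes of a comparison by nearly the same amount, so a member's distance from that median is nearly the same on both scales by construction. With TMM in WT mice this distance was 1.35 for Alkbh5, 1.09 for Ythdf3, 0.87 for Ythdf2 and 0.76 for Ythdf1. Below the median lay Mettl14 at -0.89, Fto at -0.66, Mettl16 at -0.42 and Ythdc1 at -0.14.

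Ratios of 2 members within a library need no scaling at all. Per length (RPKM, CPM per kilobase of exon), the ratio of Alkbh5 to Fto was 6.42 ± 0.98 (SD, n = 3) in WT liver, 5.74 ± 0.47 in KO liver, 1.59 ± 0.080 in WT brain and 1.56 ± 0.018 in KO brain. The 6 liver libraries ranged from 5.19 to 7.42 and the 6 brain libraries from 1.501 to 1.66, so the balance of the erasers differed between the tissues, while the genotypes of a tissue overlapped. The order of the mice in brain was the same for both erasers, and their ratio varied less between mice than either level. The ratio of Mettl3 to Mettl14 was 1.67 ± 0.26 in WT liver, 1.76 ± 0.092 in KO liver, 0.807 ± 0.16 in WT brain and 0.912 ± 0.14 in KO brain. Mettl3 exceeded Mettl14 in all 6 livers (1.38 to 1.89), while brain ratios ran from 0.667 to 1.066, and no brain reached the lowest liver.

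**Figure D4:**
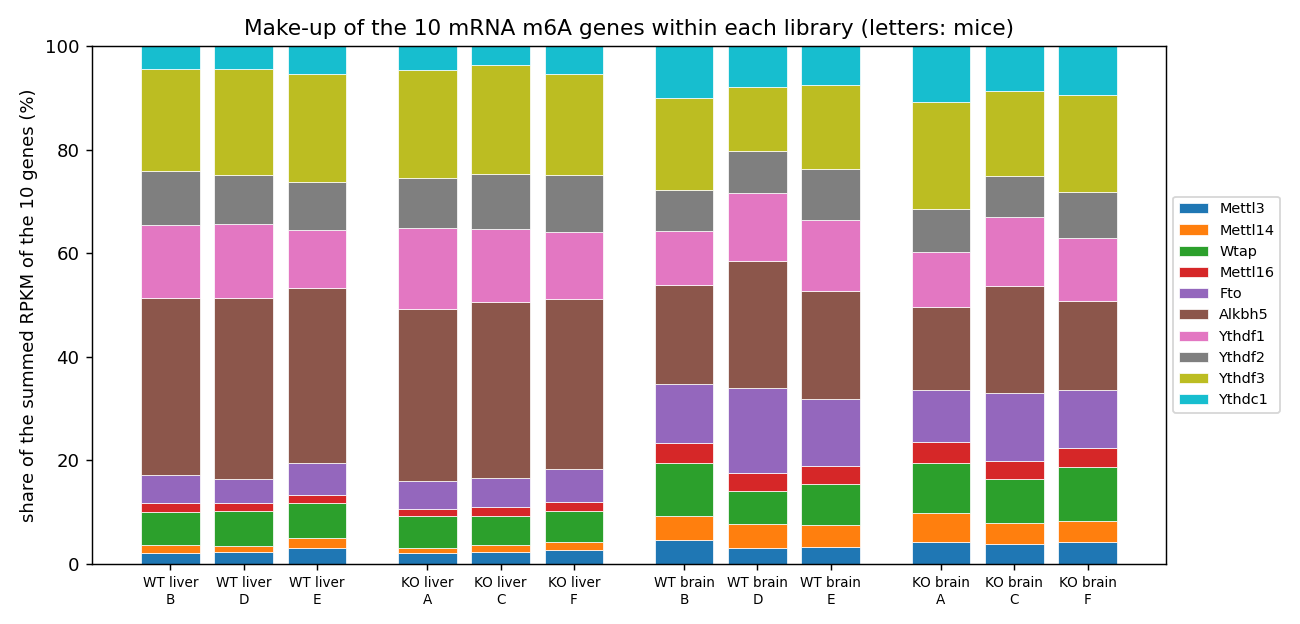
Share of each member in the summed RPKM of the 10 genes, as stacked bars that add to 100%, 1 bar per library. Alkbh5 takes from 32.8% to 34.8% in the 6 livers and from 15.9% to 24.6% in the 6 brains, and Fto, Mettl14, Mettl16 and Ythdc1 take larger shares in brain. For these 5 genes the shares of KO and WT mice overlap within each tissue.

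As a share of the summed RPKM of the 10 genes, Alkbh5 held 34.3% ± 0.54 in WT liver, 33.3% ± 0.63 in KO liver, 21.5% ± 2.8 in WT brain and 18.0% ± 2.6 in KO brain. Fto held 5.41% ± 0.75, 5.83% ± 0.43, 13.6% ± 2.5 and 11.5% ± 1.5 in the same order, and Mettl14 held 1.52% ± 0.32, 1.34% ± 0.26, 4.52% ± 0.26 and 4.54% ± 0.79. Wtap held 6.61% ± 0.20 in WT liver and 5.85% ± 0.25 in KO liver, and these shares did not overlap although its CPM did, a description over 10 members and 2 tissues for which no share of all genes can be given. Ythdf3 overlapped between all 4 groups as a share of the cytoplasmic readers: it made up 46.9% ± 3.1 of the summed RPKM of the 3 Ythdf genes in WT liver, 45.5% ± 0.59 in KO liver, 42.0% ± 6.4 in WT brain and 47.6% ± 4.4 in KO brain.

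By RPKM the order in liver was the same in both genotypes: Alkbh5, Ythdf3, Ythdf1, Ythdf2, Wtap, Fto, Ythdc1, Mettl3, Mettl16 and Mettl14. Alkbh5 led with 31.6 ± 2.1 RPKM in WT liver and 32.0 ± 2.2 in KO liver, and Mettl14 came last with 1.40 ± 0.26 and 1.28 ± 0.19. In WT liver the neighbours Ythdf1 and Ythdf2, Fto and Ythdc1, and Mettl16 and Mettl14 overlapped, and in KO liver Wtap and Fto, and Mettl16 and Mettl14. In WT brain the order was Alkbh5 (14.3 ± 3.0 RPKM), Ythdf3 (10.1 ± 1.2), Fto (9.11 ± 2.4), Ythdf1, Ythdf2, Ythdc1, Wtap, Mettl14, Mettl3 and Mettl16 (2.39 ± 0.086). Of these neighbours, Alkbh5 and Ythdf3, Ythdf1 and Ythdf2, and Wtap and Mettl14 did not overlap, and the others did. In KO brain Ythdf3 (10.9 ± 0.53 RPKM) stood above Alkbh5 (10.7 ± 2.3), which overlapped it, followed by Ythdf1, Fto, Ythdc1, Wtap, Ythdf2, Mettl14, Mettl3 and Mettl16 (2.19 ± 0.063). By RPKM, the catalytic pair and Mettl16 therefore held the last 3 places in every group, and Alkbh5 and Ythdf3 the first 2. These places depend on division by exon length, 13817 bases for Mettl16 and 13031 for Fto against 5987 for Alkbh5 and 3316 for Ythdf1. As mean CPM in WT brain, Fto (119) stood above Alkbh5 (85.8), and Mettl16 (33.0) above Ythdf1 (27.5) and Ythdf2 (26.2).

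Profiles over the 12 libraries were compared by the root mean square difference of log2 CPM after each gene's own mean was subtracted, so that 0 is an identical profile. Members with the closest profiles were Ythdf1 and Ythdf2 (0.156), Mettl3 and Wtap (0.192), Ythdf3 and Ythdf2 (0.197), and Mettl16 and Ythdc1 (0.204). Fto was nearest to Mettl16 (0.250), Mettl14 to Mettl16 (0.288) and Alkbh5 to Ythdf2 (0.329), and the most distant pair was Alkbh5 and Mettl14 (1.26). Over the other 18943 genes, the nearest to Mettl3 were Tial1 (0.0838), Haus1 (0.104) and Col4a3bp (0.106), and the nearest to Mettl14 were Mrps25 (0.140), Ptpa (0.142) and Rab23 (0.144). The libraries share their scale and their 2 tissues, so these are descriptions.

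Beyond the members, 29 genes in 5 lists cover the rest of the pathway. Of the 27 tested in liver, 0 were called between genotypes and 3 had an unadjusted p under 0.05, where 7.33% of all genes had one. Those 3 were Mettl5, the disrupted gene itself, Rbm15b and Rida. Of the 26 tested in brain, 0 were called and 1 had an unadjusted p under 0.05, against 11.0% of all genes, and this was Mettl5. With library totals, 0 were called in either tissue. In liver 3 then had an unadjusted p under 0.05, against 8.26% of all genes: Mettl5, Rbm15b and Prrc2a, but not Rida. In brain 7 had one, against 18.6%: Mettl5, Pcif1, Elavl1, Lrpprc, Cnot1, Rida and Srsf3. All 7 were lower in KO brain, as was the median of all genes on that scale. The accessory subunits of the writer complex (Virma, Zc3h13, Rbm15, Rbm15b and Cbll1) were all tested, and none was called between genotypes. In KO liver, Rbm15b had the smallest p, at 0.31 (SE 0.14, edgeR adjusted p = 0.676). Rbm15 was at 0.17 (SE 0.11) and Cbll1 at 0.10 (SE 0.22), while Virma (0.006, SE 0.12) and Zc3h13 (0.005, SE 0.15) were near 0. In KO brain 1 of the 5 was higher and 4 were lower, and the smallest p belonged to Rbm15 at -0.10 (SE 0.12, edgeR adjusted p = 0.770). Among the 5 other RNA adenosine methyltransferase genes (Mettl5, Trmt112, Zcchc4, Mettl4 and Pcif1), Mettl5 had the smallest p in both tissues. Trmt112, whose protein holds METTL5 stable, had 16.5 ± 1.9 CPM in WT liver and 20.3 ± 3.4 in KO liver, and 8.50 ± 1.6 CPM in WT brain and 7.45 ± 1.1 in KO brain. Its KO livers (at least 18.1 CPM) all lay above its WT livers (at most 17.8 CPM), as for 8.03% of all genes, while its brains overlapped. The log2 fold change was 0.27 in liver (SE 0.17, edgeR adjusted p = 0.794) and -0.18 in brain (SE 0.20, edgeR adjusted p = 0.723). Pcif1, the enzyme that methylates the adenosine next to the mRNA cap, differed most between the genotype effects of the tissues in this list, by 0.71 on the log2 scale (SE 0.33, edgeR adjusted p = 0.483).

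Of the 11 other proposed readers, 9 were tested, and Igf2bp1 and Igf2bp3 had at most 7 counts in a library. None of the 9 was called between genotypes: the smallest p belonged to Fmr1 in liver, at -0.30 (SE 0.14, edgeR adjusted p = 0.692), and to Igf2bp2 in brain, at 0.89 (SE 0.57, edgeR adjusted p = 0.559). The 4 reader effectors include Cnot1, the scaffold of CCR4-NOT, and Rida (also called HRSP12), which links YTHDF2 to RNA cleavage. Rida had the smallest p of this list in both tissues, at -0.49 in liver (SE 0.18, edgeR adjusted p = 0.552) and -0.37 in brain (SE 0.19, edgeR adjusted p = 0.498), and no effector was called. In methyl donor supply (Mat2a, Mat2b, Mat1a and Ahcy) none was called, the smallest p belonging to Mat2b in liver, at -0.15 (SE 0.14, edgeR adjusted p = 0.880), and to Mat2a in brain, at 0.12 (SE 0.12, edgeR adjusted p = 0.706). For the difference between tissues of the genotype effect, 0 of 27 were called and 0 had an unadjusted p under 0.05, against 10.6% of all genes. With library totals 0 were called and 8 had an unadjusted p under 0.05, against 17.9% of all genes, and the median of all genes was then 0.32.

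Between liver and brain, 20 of the 27 tested pathway genes were called in WT mice, 11 higher and 9 lower in liver, and 19 in KO mice, 11 higher and 8 lower, with TMM. Those counts stand beside 78.4% of all genes in WT and 80.0% in KO. With library totals 23 of the 27 were called in WT mice, 5 higher and 18 lower, against 82.4% of all genes, and 18 in KO mice, 6 higher and 12 lower, against 80.2%. In WT mice library totals turned Rbm15 to -0.47 and Mettl4 to -0.40, both called lower in liver, left Mettl5 (0.49), Trmt112 (0.12) and Cnot1 (0.22) without a call, turned Hnrnpa2b1 to -0.06, not called, and turned Elavl1 from 0.20 to -0.63, called lower. Called lower only with library totals in WT mice were also Mat2a (-0.95), Virma (-0.96), Cbll1 (-0.88), Zcchc4 (-0.96), Hnrnpc (-0.88) and Prrc2a (-0.90). In KO mice, library totals left Rbm15 (0.11), Mettl5 (0.21) and Hnrnpa2b1 (0.06) without a call, turned Mettl4 to -0.08 and Elavl1 to -0.09, neither called, and brought Mat2a (-0.67), Virma (-0.57), Zcchc4 (-0.59) and Hnrnpc (-0.75) to a call as lower. The values that follow are those with TMM. Accessory subunits counted 3 called of 5 in each genotype, with Rbm15 higher (0.36 in WT, 0.66 in KO) and Zc3h13 (-0.83, -0.77) and Rbm15b (-0.71, -0.37) lower in liver. Other methyltransferase genes counted 4 called of 5 in WT, with Mettl5 at 1.33, Trmt112 at 0.96 and Mettl4 at 0.42 higher and Pcif1 at -0.59 lower, and 3 of 5 in KO, all higher (Mettl5 at 0.76, Trmt112 at 1.45 and Mettl4 at 0.45). Other readers counted 6 called of 9 in each genotype, 3 higher and 3 lower: Ythdc2, a YTH protein with a helicase, was at -1.25 in WT and -1.38 in KO, while Lrpprc was at 1.39 and 1.60. Rbmx (-0.61, -0.75) and Fmr1 (-0.66, -1.10) were also lower and Hnrnpa2b1 (0.77, 0.61) higher in both genotypes, and the sixth called reader, also higher, was Igf2bp2 in WT (2.25) and Elavl1 in KO (0.46). All 4 effectors were called in each genotype, with Cnot1 (1.06, 1.33) and Rida (4.15, 4.06) higher and Srsf3 (-0.31, -0.45) and Srsf10 (-0.32, -0.42) lower. In methyl donor supply 3 of 4 were called in each genotype. Mat1a, the liver form of methionine adenosyltransferase, had 2295 ± 483 CPM in WT liver and 0.332 ± 0.11 CPM in WT brain, and Ahcy, which clears the product S-adenosylhomocysteine, had 517 ± 39 and 5.06 ± 0.29 CPM. Mat2a, the form used outside the liver, was not called (-0.12 in WT, edgeR adjusted p = 0.402), and Mat2b, its regulatory subunit, was lower in liver (-0.96 in WT, edgeR adjusted p = 7.74e-05).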

How the data were processed

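RNA-seq of liver and brain from 3 KO and 3 WT mice was analysed as deposited. The authors made stranded total RNA libraries (SMARTer kit, Takara), sequenced single-end reads of 100 bases, trimmed them with Trimmomatic, aligned them to mm10 (GRCm38) with STAR 2.7.3a and used featureCounts, set to the reverse strand, for reads on exons. The deposited values are raw counts of reads per gene, with exon lengths, and no replicate was pooled. Settings for reads that map to several places are not given in the sources used here. Stretches of 100 bases shared with transcripts of other genes in GENCODE M21 made up 12.6% of Mettl3 (mostly Tox4, opposite strand), 4.30% of Ythdc1 (mostly Gm43055, which had no counts) and at most 2.53% of the other members.

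The 10 members and the gene lists were chosen with earlier results of these data known. All members were named, with Mettl5, and from each pathway list the genes called and the gene with the smallest p per tissue. The gene with the nearest profile was taken for each member, and the 3 nearest of all genes for Mettl3 and Mettl14. The marker lists and their results stand beside the brain and liver values. Blood genes (3) summed to between 69.3 and 232 CPM in liver and between 19.2 and 36.4 CPM in brain, and glial genes (6) to at least 1456 CPM in brain and at most 19.6 CPM in liver.

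Counts were fitted with edgeR 4.0.16 in R 4.3.3 (TMM, filterByExpr, robust quasi-likelihood F test, Benjamini-Hochberg adjustment over all genes tested, call at an adjusted p under 0.1). Genotypes were compared within each tissue on its 6 libraries, and tissues, and the difference between tissues of the genotype effect, on all 12. SE and 95% intervals were computed from the F statistic and its degrees of freedom. TMM factors over the 12 libraries were 0.707 to 0.851 in liver, 1.31 to 1.43 in WT brain and 1.06 to 1.24 in KO brain. Single values were compared with exact permutation tests, two-sided and without pairs of mice. Libraries of a group differed far beyond counting error (chi-square per degree of freedom from 17.9 to 99.4), so none was a duplicate. Each library is 1 tissue of 1 mouse.

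Liver and brain of a mouse carry the same letter in the labels, so mouse pairs the tissues. Over 12574 genes, the correlation of a mouse's liver and brain deviations from their group means ran from -0.0387 (mouse B) to 0.141 (mouse F). Alternatives were other size factors, no filter, DESeq2 1.42.0, dispersions that were not robust, no mitochondrial genes, a covariate for Y-linked transcripts, a GC content and length offset, other sets of libraries, mouse as a block and leaving out each mouse. Library totals without TMM were added after seeing the data. No protein sequences were used here.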

Additional observations from a re-analysis of the deposited data

How the results depend on the processing

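Calls of members between genotypes numbered 0 in liver, in brain and for their difference under every alternative run, leaving out each mouse included. The highest and lowest adjusted p over the alternatives were 1 and 0.632 in liver, 1 and 0.153 in brain, and 1 and 0.207 for the difference. Between tissues, 6 to 8 members were called in WT mice and 6 to 7 in KO mice when a mouse was left out, against 72.1% to 77.8% and 74.3% to 79.5% of all genes in the same fits. With mouse as a block, 8 members were called in WT mice, against 76.6% of all genes, and 7 in KO mice, against 78.2%, and 0 for the difference of the genotype effect, so the pairing of tissues by mouse changed no call of a member. Over all genes, the block raised the calls of that difference from 0 to 68. In KO mice Fto was also called as lower in liver with DESeq2, with its size factors and with the GC content and length offset, with or without the block, and Ythdc1 lost its call with that offset.

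Between genotypes, the signs that turned belonged to log2 fold changes that were not called. In liver, library totals turned Mettl3 to 0.025, Mettl16 to 0.045, Alkbh5 to 0.082 and Ythdc1 to 0.022. Alkbh5 was at 0.0038 without the filter and at 0.018 with all 12 libraries in 1 fit, and Ythdc1 at 0.071 with the GC content and length offset. In brain, library totals turned Mettl3 to -0.22, Wtap to -0.13, Ythdf3 to -0.11 and Ythdc1 to -0.22, and the offset turned Wtap to -0.048, Ythdf3 to -0.14 and Ythdc1 to -0.25. Without the filter Mettl3 was at -0.019 and Ythdc1 at -0.015, with DESeq2 they were at -0.0069 and -0.0038, and with all 12 libraries Mettl3 was at -0.00051. For the difference of the effects, library totals turned Mettl3 to 0.24, Wtap to 0.081, Ythdf3 to 0.25 and Ythdc1 to 0.24, no filter turned Mettl3 to 0.0091 and Ythdf3 to 0.013, the offset turned Ythdf3 to 0.34 and Ythdc1 to 0.27, and the offset with the block turned them to 0.34 and 0.26. Between tissues, library totals turned Wtap to -0.63 and the called values of Ythdf1 and Ythdf2 to -0.30 and -0.18, no longer called, in WT mice, and Wtap was at 0.099 in KO mice with the offset and at 0.099 with the offset and the block. The cause of these turns was not tested, beyond the shift of all genes that library totals bring.

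Leaving out 1 mouse moved the liver value of Mettl3 between -0.13 and 0.081, of Mettl16 between -0.12 and 0.057, of Alkbh5 between -0.061 and 0.048, of Ythdf1 between -0.0029 and 0.24 and of Ythdc1 between -0.16 and 0.043. The brain value of Mettl3 lay between -0.081 and 0.17, of Wtap between -0.030 and 0.23 and of Ythdc1 between -0.077 and 0.10. The difference of the effects lay between -0.24 and 0.20 for Mettl3, between -0.18 and 0.26 for Mettl14, between -0.097 and 0.076 for Ythdf3 and between -0.16 and 0.094 for Ythdc1. The tissue difference of Mettl3 in WT mice lay between -0.29 and 0.14, and that of Wtap in KO mice between -0.091 and 0.11. With 3 mice a group, a genotype change inside a gene's own interval of the within-tissue fits could not be told from none.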
